A study of Mus musculus with 16 samples.

Results

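The comparison described here is between mouse embryonic stem (ES) cells from 2 maintenance media, both collected 24 h after the cells had been released from naive pluripotency. It uses the 4 libraries whose titles give 24 h, 2 replicates from serum/LIF+2i and 2 from 2i/LIF, of 16 libraries in all. The deposited table holds 27179 genes, and the 14288 that passed a filter on low counts were tested. The other 12 libraries, from 0, 12 and 40 h, entered the model fit and served to show where the 24 h difference departed from the difference at another time.

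Both media contained leukaemia inhibitory factor (LIF), a cytokine that acts through STAT3, and 2i, the pair of inhibitors CHIR99021 (3 µM, against GSK3) and PD0325901 (1 µM, against MEK). Cells that had been grown in serum and LIF were adapted to either medium for 3 passages and used for no more than 9. The serum/LIF+2i medium was knockout DMEM with 10% fetal bovine serum, and 2i/LIF was a serum-free mix of DMEM/F-12 and Neurobasal with N-2 and B-27. For exit, both inhibitors and LIF were removed. Cells from serum/LIF+2i went at that point into a serum-free 1:1 mix of glutamine-free DMEM and Neurobasal with N-2, B-27 and 2 mM glutamine, while the 2i/LIF cells were kept in their serum-free base. The 24 h groups therefore differed in the medium before exit, in the loss of serum at exit and in the base medium during exit, and these cannot be told apart. The labels give mouse embryonic stem cells on gelatin, without feeder cells, and do not say whether replicates were separate cultures, so the p-values measure only the spread between these libraries. The titles and treatment labels give 12 h libraries for both media, whereas the exit protocol mentions 12 h for the 2i/LIF cells alone; the titles were followed, and every comparison with 12 h, the genes distinct at 24 h included, rests on them.

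As background, naive ES cells are held by a network of transcription factors that includes Nanog, Esrrb, Klf2 and Tfcp2l1, and these genes are shut down as cells leave for the formative state, in which Otx2, Fgf5 and Dnmt3b are active. Shortage of amino acids activates the kinase GCN2, and misfolded protein in the endoplasmic reticulum (ER) activates PERK; both raise translation of the transcription factor ATF4, which induces genes of amino acid synthesis, transport and tRNA charging as well as the stress factors Ddit3 and Atf3. ER stress also acts through ATF6 and XBP1 on chaperone genes. Sterol genes answer to SREBP2, which serum lipoproteins keep low.

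The 4 libraries held 9065257 and 9634680 counts in serum/LIF+2i and 7284740 and 6629047 in 2i/LIF, where all 16 ranged from 5931381 to 11142744. Ribosomal RNA took 1.77% of the counts in serum/LIF+2i replicate 1 against 0.551% to 0.858% in the other 3 libraries. Summed over 9 ES cell markers, expression was 4236 to 4303 CPM (TMM-scaled counts per megaread) in serum/LIF+2i and 4619 to 4635 in 2i/LIF. Markers of primitive endoderm summed to 13.3 to 14.05 against 14.3 to 15.96 CPM and those of trophectoderm to 10.6 to 11.01 against 9.73 to 10.97 CPM, with Elf5 at 0 in all 4 libraries. Mesendoderm markers summed to 5.64 to 7.95 against 4.26 to 4.72 CPM, with Gsc and Lhx1 at 0, and fibroblast markers to 4.18 to 4.98 against 4.58 to 5.62, with Postn and Lum at 0. Neural markers summed to 77.1 to 79.5 against 86.6 to 86.8 CPM, with Sox1 called higher and Pax6 and Nes lower in serum/LIF+2i. Markers of 2-cell-like cells summed to 12.1 to 12.5 against 23.6 to 27.8 CPM. Of these 9 markers 5 were called lower in serum/LIF+2i and 0 higher, against 17.0% and 14.1% of all tested genes. In all 4 libraries 7 of the 9 were under 5 CPM, so their calls rest on few reads. The 2-cell-like markers belong to families of near-identical copies among which reads may be split. The part of all these cell type markers in the results below was not tested. In bulk RNA, fewer cells of a type and less RNA per cell cannot be told apart.

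At 24 h, 4439 of 14288 genes (31.1%) differed between the media at an adjusted p under 0.05 (edgeR's quasi-likelihood F test with Benjamini-Hochberg adjustment). Of these, 2010 (14.1% of the tested genes) were higher and 2429 (17.0%) lower in serum/LIF+2i. Most differences were small: the median size among called genes was 0.38 on the log2 scale, and 620 differed by more than 2-fold, 375 of them higher and 245 lower. The spread between replicates was also small over the series, with a common biological coefficient of variation of 3.19% from all 16 libraries. A chi-square per degree of freedom set replicate differences against counting noise, without ribosomal RNA. It was 2.88 in serum/LIF+2i at 24 h, the largest of the 8 groups, and 1.67 in 2i/LIF at 24 h. The shared estimate may thus be low for the serum/LIF+2i group, which was not tested. In 4433 of the called genes both libraries of one medium lay beyond both of the other, which was also so for 4803 of the 9849 genes not called. DESeq2's Wald test called 2729 genes. The majority of lower calls depends on the scaling, since with library size alone 2282 genes were higher and 2096 lower.

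**Figure D1:**
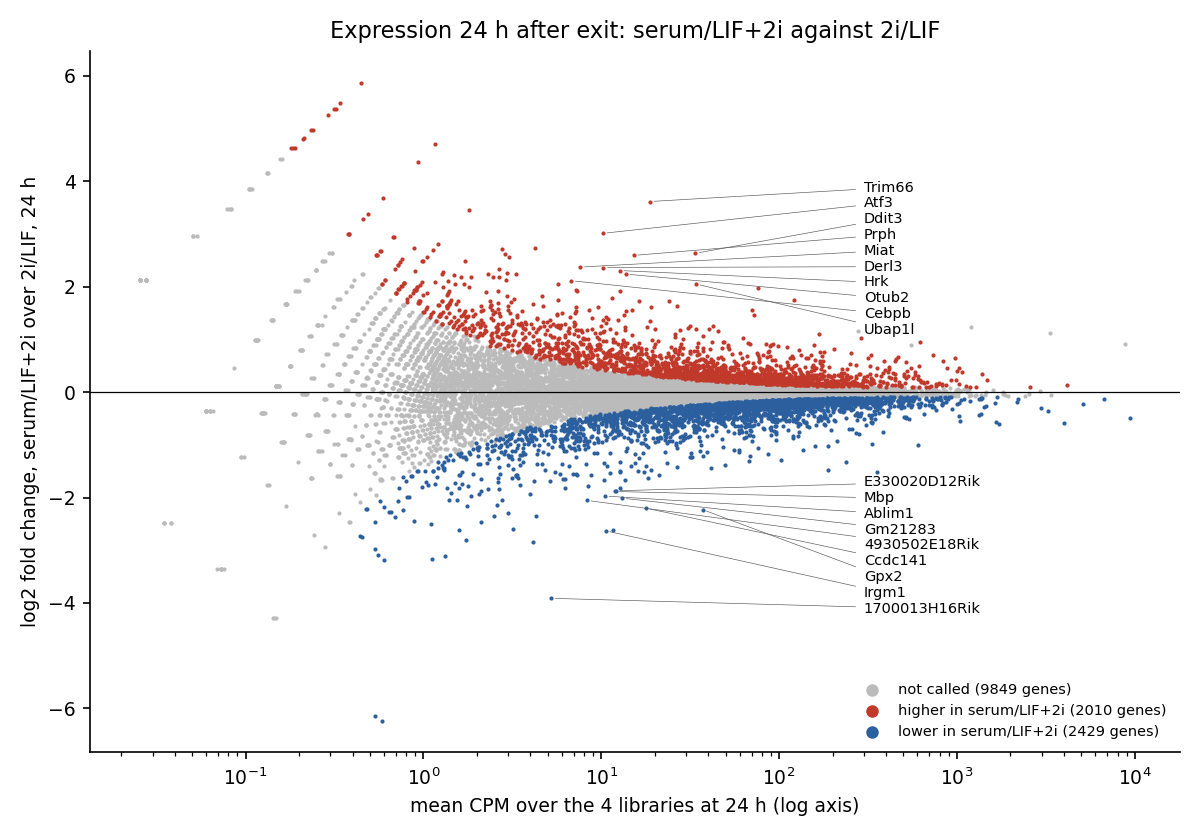
Mean CPM over the 4 libraries (log axis) against the log2 fold change of serum/LIF+2i over 2i/LIF at 24 h, one point per tested gene; red points (2010) were called higher, blue points (2429) lower and grey points (9849) were not called. The labelled genes are the 10 highest and 9 of the 10 lowest called genes averaging 5 CPM or more; among them Trim66 and Atf3 stand highest and 1700013H16Rik lowest.

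Genes of the amino acid response, the targets of ATF4, were higher in serum/LIF+2i in all but 1 member. Of 30 tested members 29 were called higher and 0 lower, against 14.1% and 17.0% of all tested genes. These shares are the background for the counts of every list below. The median log2 fold change was 0.75 against -0.01 over all genes. The member not called was Cbs, which makes cystathionine, with 41.5 and 42.3 CPM in serum/LIF+2i and 38.9 and 43.0 in 2i/LIF.

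The largest differences in this list were in transcription factors of the stress response. Atf3, a repressor and activator induced by ATF4, had 18.2 CPM in both serum/LIF+2i libraries and 1.94 and 2.58 in 2i/LIF. This was an 8.06-fold difference (log2 3.01 ± 0.22 SE, edgeR adjusted p = 2.3e-23). Ddit3, which encodes the factor CHOP, had 58.1 and 58.2 CPM against 7.36 and 11.5, a difference of 2.63 ± 0.13 (edgeR adjusted p = 4.7e-27). Exons of Ddit3 overlap those of Mars on the opposite strand and whether counting used strand is not given in the sources used here; Mars itself had 330.5 and 338.1 CPM against 327.8 and 323.8 (edgeR adjusted p = 0.52). Cebpb, a partner of ATF4, had 11.3 and 10.8 CPM against 2.92 and 2.13 (2.11 ± 0.24, edgeR adjusted p = 1.1e-12). For all 3 factors both serum/LIF+2i libraries were well above both 2i/LIF libraries. Atf4 itself was higher by less, at 479.8 and 487.9 CPM against 343.1 and 357.1 (0.47 ± 0.04), as were Atf5 (0.66 ± 0.08) and Cebpg (0.74 ± 0.07).

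Genes for brakes and effectors of the pathway were also higher. The libraries measure RNA and not ATF4 protein or its activity, and the part of ATF4 in these differences was not tested. Trib3, a pseudokinase that holds back ATF4 and CHOP, had 189 and 184 CPM in serum/LIF+2i and 53.6 and 58.4 in 2i/LIF, a 3.34-fold difference (1.74 ± 0.06, edgeR adjusted p = 6.8e-52). Ppp1r15a, which encodes the eIF2α phosphatase subunit GADD34, had 64.9 and 64.6 against 34.3 and 32.4 CPM (0.96 ± 0.08). Chac1, which degrades glutathione, had 106.2 and 104.9 against 33.7 and 37.7 CPM (1.57 ± 0.08). The TORC1 inhibitors Ddit4 (1.46 ± 0.09) and Sesn2 (0.50 ± 0.05) and the translation repressor Eif4ebp1 (0.37 ± 0.04) were all higher. So were the secreted factors Gdf15 (1.37 ± 0.18) and Stc2 (1.21 ± 0.11), the stress protein Nupr1 (1.26 ± 0.10) and the receptor Vldlr (1.72 ± 0.15).

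Metabolic genes of this list were higher as well. In the serine pathway Psph, the last enzyme, had 108 and 110.8 CPM against 58.7 and 71.1 (0.76 ± 0.07), while Psat1 (0.39 ± 0.04) and Phgdh (0.24 ± 0.07, edgeR adjusted p = 0.0055) showed smaller differences. In mitochondrial one-carbon metabolism Aldh1l2 had 32.6 and 41.7 CPM against 11.5 and 10.9 (1.73 ± 0.15), Mthfd2 had 318.3 and 316.4 against 189.6 and 191.0 (0.74 ± 0.04), and Shmt2 was higher by 0.57 ± 0.04. The proline enzymes Aldh18a1 (0.76 ± 0.05) and Pycr1 (0.58 ± 0.10), the cysteine enzyme Cth (0.65 ± 0.04) and the gluconeogenic Pck2 (0.89 ± 0.06) were higher too. Asns, asparagine synthetase and a standard marker of this response, was higher by 0.27 ± 0.04, with 549.9 and 585.7 CPM against 469.9 and 469.4.

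The difference in this list was larger at 24 h than at the other times. Its median of 0.75 compares with -0.14 before exit, 0.17 after 12 h and 0.30 after 40 h, and at those times 6, 11 and 25 members were higher and 10, 4 and 2 lower. Comparisons of 24 h with another time used the change of the medium difference, which was called for 20.8% of all genes against 0 h, 17.1% against 12 h and 12.2% against 40 h. In the amino acid list 26 of 30 members had a more positive difference at 24 h than at 0 h, 23 than at 12 h and 21 than at 40 h. In Ddit3 the level in serum/LIF+2i was 10.4 and 10.7 CPM before exit, 11.8 and 13.5 after 12 h, 58.1 and 58.2 after 24 h and 55.2 and 56.0 after 40 h. In 2i/LIF it was 13.3 and 14.9, 11.6 and 9.89, 7.36 and 11.5, and 17.4 and 27.4 CPM at the same times. The log2 difference went from -0.42 before exit through 0.24 after 12 h to 2.63 after 24 h and 1.32 after 40 h. It was called at 24 and 40 h. At 0 and 12 h it was not called (edgeR adjusted p = 0.078 and 0.31), although the libraries of the media did not overlap. Trib3 in 2i/LIF was at 53.6 and 58.4 CPM at 24 h and 114 and 121 at 40 h, so that this medium reached at 40 h a level still below the 189 and 184 CPM of serum/LIF+2i at 24 h.

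**Figure D2:**
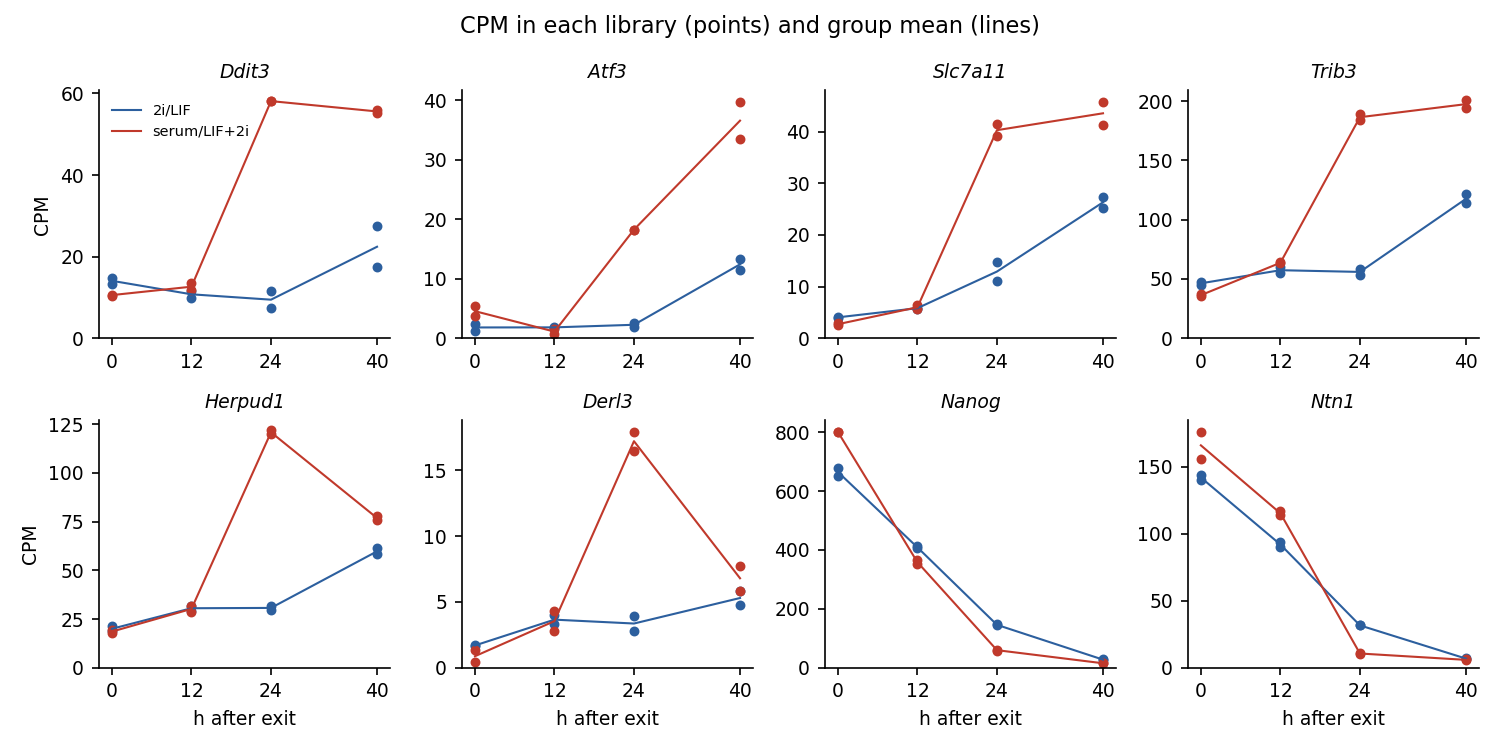
CPM of 8 genes against hours after exit; points are single libraries, lines join the group means, blue is 2i/LIF and red serum/LIF+2i. Ddit3, Atf3, Slc7a11, Trib3, Herpud1 and Derl3 stand apart between the media at 24 h, with Ddit3 at 58.1 and 58.2 CPM in serum/LIF+2i and at 7.36 and 11.5 in 2i/LIF, while Nanog and Ntn1 fall in both media and are lower in serum/LIF+2i at 24 h.

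Promoters of these genes were searched for the composite element through which ATF4 and C/EBP proteins act, TGATGNAA on either strand, in the 250 bases before the gene start (RefSeq windows, GRCm38.p6). A window was found for 10940 of the 14288 tested genes, and 262 of them (2.39%) held the element. In the amino acid list 7 of the 27 members with a window did (25.9%), namely Asns, Atf3, Chac1, Nupr1, Pck2, Pycr1 and Vldlr. In the amino acid transporter list 2 of 18 did (11.1%), and in the ER chaperone list 1 of 16 (6.25%), Herpud1. Among all genes called higher at 24 h the share was 72 of 1597 (4.51%) and among those called lower 32 of 1891 (1.69%). Other lists were searched in the same way for other motifs. The sterol element TCACNCCAC lay in 1 of 17 cholesterol genes (5.88%) and 0 of 12 fatty acid genes, against 1.30% of all windows. The core of the CLEAR element of lysosomal genes, TCACGTGA, lay in 4 of 26 lysosome genes (15.4%) against 1.70%. The STAT site TTCCNGGAA lay in 0 of 12 naive and 0 of 11 LIF/STAT3 genes against 1.21%, and the TCF site, CTTTGATC or CTTTGAAG, in 2 of 8 Wnt targets (25%) against 2.06%. A match is a description of the letters and not a binding site, and no match says only that these letters are not in the window. All 7 amino acid list members that held the ATF4 element were called higher at 24 h. So were 26 of the 27 members with a window, and the 7 are not read as a link between element and call. Stretches around that element are shown for 5 of the 7, leaving out Pck2 and Pycr1. Further stretches are shown for the transporter gene Slc7a11 and the ER gene Herpud1 described below. All stretches run 5′ to 3′ on the gene's strand with the element in capitals, and lie at chr2:119351009-119351096 on the plus strand (Chac1), chr1:191183396-191183483 on the minus strand (Atf3), chr19:27216780-27216867 on the plus strand (Vldlr), chr7:126625533-126625620 on the minus strand (Nupr1), chr6:7693210-7693272 on the minus strand (Asns), chr3:50443614-50443719 on the minus strand (Slc7a11) and chr8:94386277-94386364 on the plus strand (Herpud1).
Chac1: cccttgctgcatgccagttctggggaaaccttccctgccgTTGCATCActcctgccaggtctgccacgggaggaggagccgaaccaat
Atf3: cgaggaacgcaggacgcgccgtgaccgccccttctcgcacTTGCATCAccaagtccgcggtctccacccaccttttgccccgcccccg
Vldlr: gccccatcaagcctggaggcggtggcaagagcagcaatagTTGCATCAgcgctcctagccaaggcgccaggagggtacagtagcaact
Nupr1: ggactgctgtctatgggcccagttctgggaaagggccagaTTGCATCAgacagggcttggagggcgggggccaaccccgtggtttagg
Asns: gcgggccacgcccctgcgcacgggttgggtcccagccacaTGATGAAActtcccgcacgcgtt
Slc7a11: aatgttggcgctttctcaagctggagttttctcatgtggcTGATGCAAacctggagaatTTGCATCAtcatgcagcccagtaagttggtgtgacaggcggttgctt
Herpud1: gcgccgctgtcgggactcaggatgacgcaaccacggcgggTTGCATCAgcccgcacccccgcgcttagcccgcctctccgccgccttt
The element began 193 bases before the start in Chac1, 110 in Atf3 and Nupr1, 200 in Vldlr, 23 in Asns and 112 in Herpud1. Slc7a11 held the element on both strands, at 66 and 47 bases.

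ER chaperone and quality control genes were also higher in serum/LIF+2i at 24 h. Of 18 members 16 were called higher and 0 lower, with a median of 0.45. Herpud1, a component of ER-associated degradation, had 119.8 and 121.9 CPM in serum/LIF+2i and 29.7 and 31.8 in 2i/LIF, a 3.94-fold difference (1.98 ± 0.08, edgeR adjusted p = 1.3e-46). It stood apart from the other members, which lay between 0.08 and 0.91. Hspa5, the chaperone BiP, had 1179 and 1218 CPM against 744.1 and 780.8 (0.65 ± 0.04). Dnajc3 (0.91 ± 0.07), Creld2 (0.91 ± 0.07), Sdf2l1 (0.85 ± 0.10) and Manf (0.71 ± 0.05) were higher by more. Syvn1, the ubiquitin ligase HRD1, was higher by 0.88 ± 0.08, but its exons overlap those of Mrpl49, and with the strand setting not given its counts are uncertain. Xbp1 was higher by 0.33 ± 0.05. The lectin chaperones Calr (509.4 and 524.7 against 495.9 and 484.6 CPM) and Canx (868.1 and 853 against 809.8 and 823.2) were not called.

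At 12 h these genes had been on the other side. The median was -0.18 at 12 h, when 10 members were lower and 0 higher in serum/LIF+2i, against -0.05 at 0 h and 0.17 at 40 h. The change of the difference from 12 to 24 h was positive and called for all 18 members, against 17.1% of all genes called in either direction. Herpud1 in serum/LIF+2i was at 31.6 and 28.8 CPM after 12 h, 119.8 and 121.9 after 24 h and 77.8 and 75.9 after 40 h. In 2i/LIF it was at 29.2 and 32.0, 29.7 and 31.8, and 58.2 and 61.3 CPM, so the groups overlapped at 12 h and were apart at 24 and 40 h. Derl3, another gene of ER-associated degradation that was not in the list, had 16.5 and 17.9 CPM against 2.78 and 3.95 at 24 h (2.36 ± 0.21, edgeR adjusted p = 5.8e-18) but 5.86 and 7.74 against 4.76 and 5.84 at 40 h.

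The aminoacyl-tRNA synthetases, which charge tRNAs with their amino acids, were higher for most cytosolic members. Of 20 members 14 were called higher and 1 lower, with a median of 0.31. Nars, the asparagine enzyme, had 887.7 and 926.7 CPM in serum/LIF+2i and 546.9 and 573.1 in 2i/LIF (0.70 ± 0.04, edgeR adjusted p = 1.6e-34). Wars (0.62 ± 0.05), Eprs (0.59 ± 0.04), Sars (0.58 ± 0.04) and Gars (0.49 ± 0.04) came next. The member called lower was Qars, the glutamine enzyme, with 229.8 and 224.6 against 269.2 and 285.5 CPM (-0.29 ± 0.04, edgeR adjusted p = 7.2e-09). Not called were Dars (-0.06), Hars (0.11), Kars (-0.01), Mars (0.04) and Vars (0.08). The list's median at 0, 12 and 40 h was 0.12, 0.19 and 0.18, with 12, 15 and 12 members higher, so a smaller difference in the same direction was present at all other times. The ATF4 element was found in 3 of the 13 windows (Aars, Gars and Tars).

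Among plasma membrane amino acid transporters 27 of 30 were tested, with a median of 0.32. Of these 12 were higher (44.4%), 4 lower (14.8%) and 11 not called, against 14.1% higher and 17.0% lower of all tested genes. Slc7a11, the cystine importer, had 39.2 and 41.4 CPM in serum/LIF+2i and 14.7 and 11.1 in 2i/LIF, a 3.10-fold difference (1.63 ± 0.12, edgeR adjusted p = 1.9e-23). Slc7a1, an importer of arginine and lysine, had 386.8 and 391.5 against 198.8 and 184.5 CPM (1.02 ± 0.06). The glycine transporter Slc6a9 (1.26 ± 0.11; exons overlapping Ccdc24), the neutral exchangers Slc1a4 (0.68 ± 0.06) and Slc1a5 (0.32 ± 0.05), and Slc3a2 (0.63 ± 0.04) with its light chain Slc7a5 (0.36 ± 0.04) were higher as well. Of the transporters called lower, Slc6a8 carries creatine (66.0 and 70.3 against 115 and 109.9 CPM, -0.72 ± 0.06) and Slc6a6 taurine (158.3 and 150.5 against 220 and 215.3 CPM, -0.50 ± 0.04). The other two were Slc36a1 (-0.52 ± 0.18) and Slc43a1 (-0.50 ± 0.14). The arginine transporter Slc7a3, at 613.6 and 594.8 against 577.7 and 577.0 CPM, was not called.

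Of 16 enzymes of glutamine and proline use 2 were higher (12.5%), 3 lower (18.75%) and 11 not called. Over all tested genes the shares were 14.1% and 17.0%, and the counts are not read as a result about this list. Its median was 0.01, and -0.029 without 2i/LIF replicate 1. Glul, glutamine synthetase, had 143 and 137 CPM in serum/LIF+2i and 200.1 and 206 in 2i/LIF (-0.54 ± 0.05, edgeR adjusted p = 3.4e-18). Prodh, which begins proline breakdown, was higher (25.8 and 23.7 against 13.9 and 17.0 CPM, 0.68 ± 0.13), as was Gfpt1 of the hexosamine pathway (0.36 ± 0.07).

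Naive pluripotency genes were lower in cells from serum/LIF+2i. Of 18 members 14 were called lower and 0 higher (median -0.61), and all 18 fell between 0 and 40 h of exit in 2i/LIF. Nanog had 61.3 and 58.7 CPM in serum/LIF+2i and 148 and 143.9 in 2i/LIF, a ratio of 0.411 (log2 -1.28 ± 0.05, edgeR adjusted p = 4.3e-44). Tdh, threonine dehydrogenase, which mouse ES cells depend on, had 127.4 and 119.7 against 251.3 and 251 CPM (-1.02 ± 0.04). Both genes were at less than their 2i/LIF level by more than the spread between replicates. Prdm14 (3.76 and 3.57 against 10.1 and 11.7 CPM, -1.57 ± 0.20) and Dppa3 (3.21 and 2.34 against 9.58 and 10.0 CPM, -1.82 ± 0.23) showed the largest called differences at low levels.

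Other members of the network differed by less. Esrrb had 242.3 and 239.4 CPM against 328.1 and 329.6 (-0.45 ± 0.04), Tfcp2l1 107.7 and 111.5 against 143.7 and 141.8 (-0.38 ± 0.05) and Klf2 47.4 and 48.9 against 84.7 and 78.9 (-0.76 ± 0.07). Zfp42, also known as Rex1 and the basis of common exit reporters, was lower by 0.21 ± 0.04 on the log2 scale (264.8 and 261.2 against 307.4 and 300.3 CPM). Klf4 (14.3 and 14.2 against 16.9 and 16.6 CPM), Klf5 and Tbx3 were not called, and neither was Spic, which was below 1 CPM in all 4 libraries.

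The median of the naive list was farthest from 0 at 24 h. Its values at 0, 12 and 40 h were 0.01, -0.08 and -0.22, and the difference at 24 h was more negative than at 0 h in 14 members and more negative than at 12 h in 10. Against 40 h it was more negative in 6 members and less negative in 2. At 0 h Nanog had been higher in serum/LIF+2i (802 and 800.3 against 650.2 and 679.7 CPM). It fell in both media to 352 and 365 against 412 and 406 CPM at 12 h, and at 40 h to 14.9 and 16.1 against 29.1 and 26.6. Nr5a2, a nuclear receptor, was close between the media at 12 h (86.4 and 86.9 against 85.5 and 81.2 CPM) and apart at 24 h (17.6 and 14.4 against 32.2 and 27.2 CPM, -0.90 ± 0.11). By 40 h it was at 4.05 and 4.45 against 3.01 and 4.21 CPM, where the groups overlapped.

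General pluripotency factors differed little. Pou5f1, which encodes OCT4, had 827.4 and 849.1 CPM in serum/LIF+2i and 742.6 and 750.1 in 2i/LIF (0.17 ± 0.03, edgeR adjusted p = 3.5e-05). Sox2 had 296.6 and 281.3 against 320.8 and 327.8 CPM (-0.17 ± 0.04, edgeR adjusted p = 0.0017, and 0.096 without serum/LIF+2i replicate 2 or 0.053 without 2i/LIF replicate 2). Of 10 core genes 3 were higher (30%) and 3 lower (30%), against 14.1% and 17.0% of all tested genes (median 0.10). Lin28a, an RNA-binding protein that blocks let-7 maturation, was higher (0.35 ± 0.04), and Dppa5a (-0.42 ± 0.04) and Dppa4 (-0.23 ± 0.05) were lower.

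Formative and primed genes moved in both directions, although all 18 rose during exit in 2i/LIF. Of the 18, 7 were higher (38.9%) and 5 lower (27.8%), against 14.1% and 17.0% of all tested genes. The median was -0.17 (-0.102 without 2i/LIF replicate 1). Lin28b had 47.0 and 48.8 CPM in serum/LIF+2i and 28.0 and 25.5 in 2i/LIF (0.84 ± 0.09, edgeR adjusted p = 2.7e-13). Dnmt3a, a de novo DNA methyltransferase, was higher (1225 and 1208 against 930.2 and 934.6 CPM, 0.38 ± 0.03), and Otx2, which reorganises enhancers in the formative state, was higher by 0.18 ± 0.07 (94.6 and 90.8 against 84.0 and 78.9 CPM). Dnmt3b was lower by 0.14 ± 0.04 on the log2 scale. Sox3 was lower (12.2 and 9.78 against 22.1 and 19.15 CPM, -0.92 ± 0.15). Fgf5 was lower as well (7.08 and 5.401 against 8.33 and 14.3 CPM, -0.85 ± 0.21), but without 2i/LIF replicate 2, its highest library, the difference was -0.41 with an edgeR adjusted p of 0.27. Pou3f1 was not called (-0.21). Only 8 of 20 early lineage regulators passed the low-count filter, 2 of them higher (25%) and 2 lower (25%). Over all tested genes the shares were 14.1% and 17.0%, and these counts are not read as a result about the list. Sox1 was higher (18.0 and 20.3 against 11.8 and 12.3 CPM, 0.67 ± 0.14). Pax6 was lower (5.97 and 6.11 against 11.1 and 8.51 CPM, -0.70 ± 0.20), with an edgeR adjusted p of 0.19 without 2i/LIF replicate 1.

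Among ERK feedback and immediate genes 6 of 15 were higher (40%) and 3 lower (20%), against 14.1% and 17.0% of all tested genes. The lower count is near that share and is not read as a result about the list. The list's median was 0.01, and -0.008 without 2i/LIF replicate 2. Dusp6, a phosphatase of ERK, had 89.3 and 90.2 CPM against 90.9 and 86.9 and was not called. Dusp4 was higher (47.6 and 46.3 against 31.7 and 34.8 CPM, 0.50 ± 0.09), as was Spred3 (0.56 ± 0.13), while Etv5 (-0.33) and Spry1 (-0.45) were lower. Of 12 Wnt targets 3 were lower (25%, near the 17.0% of all tested genes) and 0 higher. Their median was -0.27, and -0.068 without serum/LIF+2i replicate 1, and neither the count nor the median is read as a result about the list. Notum, a secreted Wnt deacylase, had 41.3 and 37.4 against 97.5 and 95.7 CPM (-1.30 ± 0.07, edgeR adjusted p = 2.6e-33), and Ccnd1, cyclin D1, had 200.1 and 198 against 342 and 343 CPM (-0.78 ± 0.04; exons overlapping LTO1). Axin2 was lower by 0.42 ± 0.14 on the log2 scale, with an edgeR adjusted p of 0.12 without serum/LIF+2i replicate 2 and 0.13 without 2i/LIF replicate 1. In the LIF/STAT3 list 1 of 11 members was called, Gbx2 (-0.34 ± 0.09, edgeR adjusted p = 0.055 without 2i/LIF replicate 1). The list's median was -0.05, and 0.01 or 0.02 without either serum/LIF+2i library, so its sign rests on those libraries.

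In the other signalling lists, Nodal genes were lower in 7 of 14 members (50%) and higher in 1 (7.14%), with a median of -0.12. Over all tested genes the shares were 17.0% and 14.1%. Lefty1, an antagonist and target of the pathway, had 27.7 and 29.0 CPM against 48.9 and 52.1 (-0.83 ± 0.09, edgeR adjusted p = 7e-14), and Smad3 was lower by 0.60 ± 0.13 on the log2 scale. Counts in the BMP and Notch lists lay near the 17.0% of all tested genes called lower and are not read as results about those lists. Of 13 BMP and Id genes 3 were lower (23.1%), Id2 (-1.24), Id3 (12.3 in both libraries against 23.5 and 22.3 CPM, -0.90 ± 0.15) and Id4 (-1.32), and 1 was higher, Smad5 (0.25 ± 0.07). Id2 and Id4 each either averaged under 5 CPM or had groups that overlapped. The list's other values follow. The median of the BMP and Id list was -0.086, and it was 0.067 without serum/LIF+2i replicate 1 and -0.317 without 2i/LIF replicate 2. Id proteins hold back differentiation by binding basic helix-loop-helix factors. Of 12 Notch genes 3 were lower (25%) and 0 higher, among them Notch1 (34.95 and 42.7 against 58.2 and 60.6 CPM, -0.61 ± 0.08). Their median was -0.291, and it was -0.033 without 2i/LIF replicate 1 and -0.102 without serum/LIF+2i replicate 1. FGF ligands and receptors had 2 higher (18.2%) and 3 lower (27.3%) of 11, against 14.1% and 17.0% of all tested genes. Fgf17 was at -1.22 and Flrt3 at -0.89, but each either averaged under 5 CPM or had groups that overlapped. The list's median of 0.16 was -0.145 without 2i/LIF replicate 2 and -0.148 among genes averaging at least 5 CPM. Retinoic acid genes had 4 higher (28.6%) and 2 lower (14.3%) of 14 (median 0.26). Counts in the FGF and retinoic acid lists are not read as results about those lists. Crabp1 was higher (13.5 and 11.4 against 6.80 and 6.69 CPM, 0.88 ± 0.18) and Rarg was higher by 0.18 ± 0.04.

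**Figure D3:**
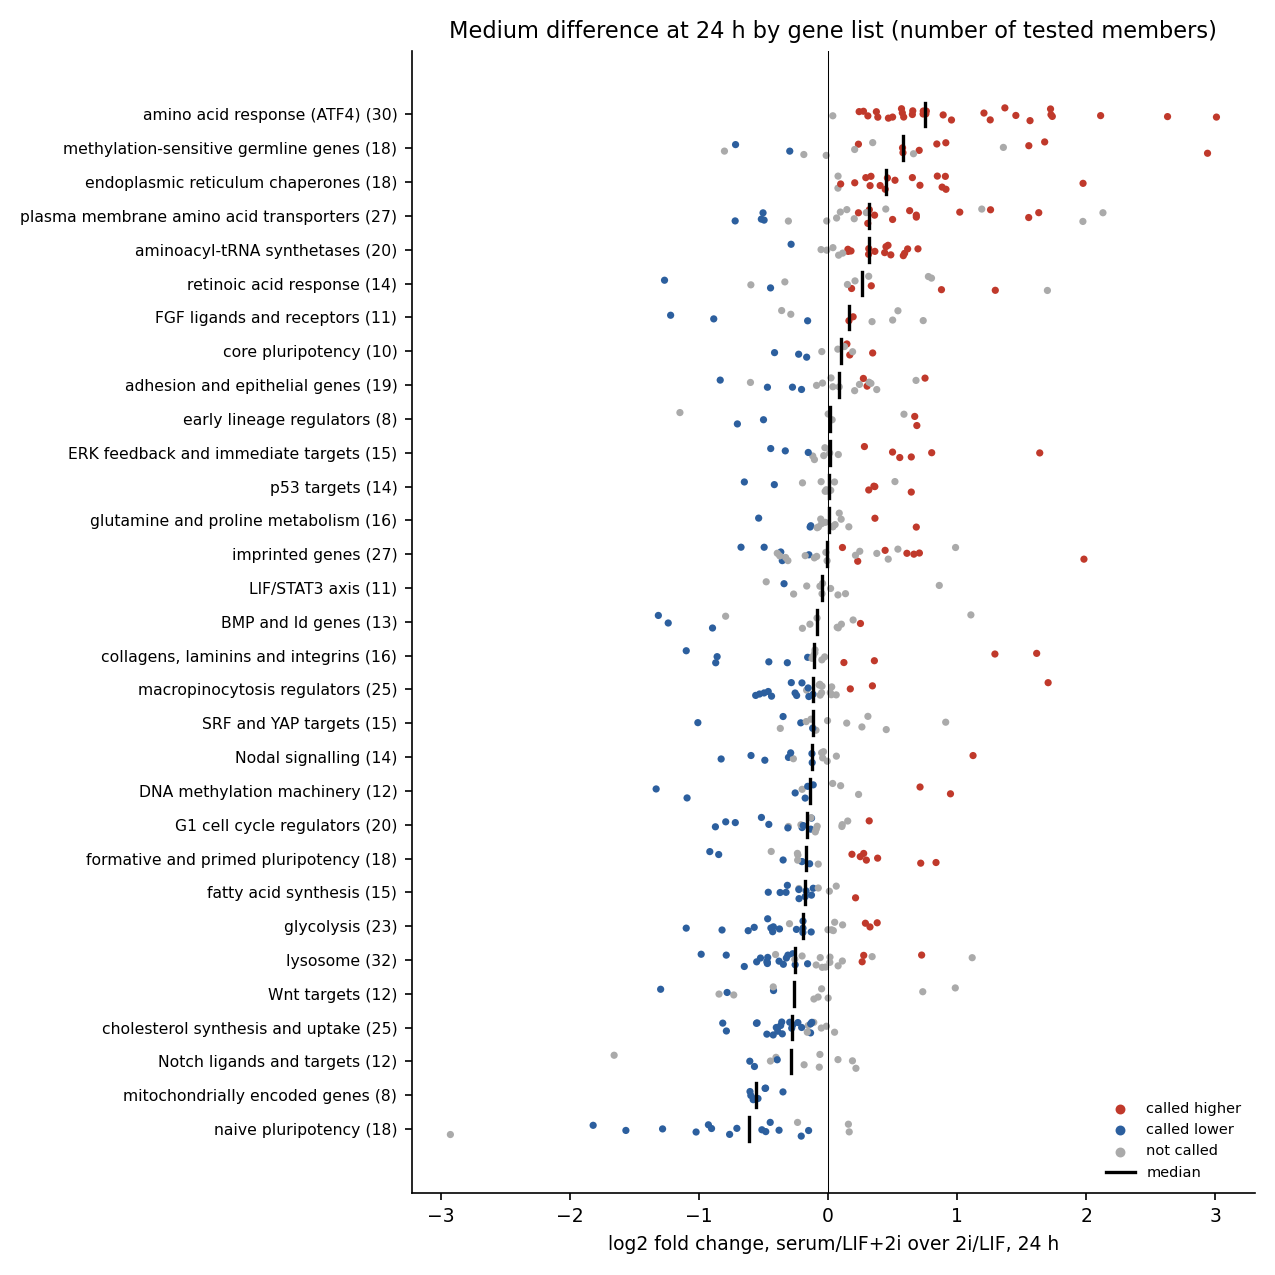
Log2 fold change at 24 h of every tested member of 31 gene lists, ordered by list median (black bars), with the number of tested members in brackets; red points were called higher in serum/LIF+2i, blue points lower, and the height within a row is jitter. The amino acid response list stands at the top with a median of 0.75 and naive pluripotency at the bottom with -0.61. Of the 31 medians, 7 changed sign without at least 1 of the 4 libraries.

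Sterol and fatty acid genes were lower in cells from serum/LIF+2i, with both groups without serum during the 24 h. Of 25 cholesterol genes 19 were called lower and 0 higher (median -0.28). Ebp, a sterol isomerase, had 29.6 and 31.1 CPM against 52.2 and 55.0 (-0.82 ± 0.09). Nsdhl, a sterol dehydrogenase, was lower by 0.56 ± 0.06 on the log2 scale. The difference was smaller than at 0 h, when the median was -0.53 and 21 members were lower; in 12 members the 24 h difference was less negative than at 0 h and in 1 more negative. Of 15 fatty acid genes 10 were lower and 1, Acsl4, higher (median -0.18 against -0.48 at 0 h), with Acly, which makes cytosolic acetyl-CoA, at 831 and 849 against 1049.8 and 1042 CPM (-0.32 ± 0.03) and Fads2, a desaturase, at -0.33 ± 0.05.

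Glycolytic genes changed side between 12 and 24 h. At 24 h 14 of 23 were lower and 3 higher (median -0.20), whereas at 0 and 12 h 12 and 10 were higher (medians 0.19 and 0.14). The change of the difference from 0 to 24 h was called negative for 16 members and positive for 1. Slc2a1, the glucose transporter GLUT1, had 128.5 and 126.5 CPM against 195 and 197 at 24 h (-0.62 ± 0.05, edgeR adjusted p = 5.9e-21), where the difference had been 0.15 at 0 h. Hk1 (47.7 and 50.1 against 83.9 and 89.5 CPM, -0.82 ± 0.07) and Ldhb (89.3 and 84.3 against 183 and 189 CPM, -1.10 ± 0.05) were lower at every time. Ldha was the main exception at 24 h (645.2 and 648.1 against 512.4 and 520.5 CPM, 0.32 ± 0.04), down from 1.45 at 0 h. All 8 tested genes of the mitochondrial genome were lower (median -0.56), among them ND1, a subunit of complex I, at 3273 and 3165 against 4819 and 4813 CPM (-0.58 ± 0.03) and COX1 of complex IV at -0.49 ± 0.03. ND5 was at -0.60 ± 0.05, with exons that overlap another gene, but had an edgeR adjusted p of 0.059 when only the 4 libraries were fitted. The other 5 mitochondrial genes of the list did not pass the filter.

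Of 32 tested lysosome genes 16 were lower (50%) and 3 higher (9.38%), against 17.0% and 14.1% of all tested genes (median -0.26). The cathepsins Ctsb (72.3 and 68.7 against 128 and 116 CPM, -0.79 ± 0.06; exons overlapping Fdft1) and Ctsc (5.42 and 5.71 against 9.02 and 13.2 CPM, -0.98 ± 0.20) were lower, and Gaa, the acid glucosidase, was higher (35.3 and 36.0 against 19.9 and 23.4 CPM, 0.72 ± 0.11). The median had been -0.27 at 0 h and -0.39 at 12 h and was -0.03 at 40 h. Regulators of macropinocytosis, the uptake of fluid from which cells can also draw protein, were lower in 12 of 25 (48%) and higher in 3 (12%). Their median was -0.12, and -0.069 without 2i/LIF replicate 1. Dock1, a Rac activator, was at 53.6 and 56.6 against 76.4 and 75.8 CPM (-0.46 ± 0.07) and Snx1 at -0.53 ± 0.08.

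Among DNA methylation genes 6 of 12 were lower (50%) and 2 higher (16.7%), against 17.0% and 14.1% of all tested genes. Their median was -0.14, and tested members ranged from -1.33 to 0.95. Dnmt3l, the cofactor of the de novo enzymes, was among the higher members and at the top of that range. It had 810.1 and 820.4 CPM in serum/LIF+2i and 419.3 and 425.7 in 2i/LIF (0.95 ± 0.09, edgeR adjusted p = 3.4e-05), after a difference of 4.50 at 0 h. Germline genes that are silenced by promoter methylation in somatic cells were higher in 9 of 18 (50%) and lower in 2 (11.1%). Their median was 0.58, after a median of -0.58 at 0 h. Among genes averaging at least 5 CPM the median at 24 h was 0.232. Piwil2 had 36.4 and 38.0 against 20.96 and 20.5 CPM (0.84 ± 0.11) and Mael 16.5 and 16.2 against 10.8 and 9.12 (0.71 ± 0.15); Rpl10l was lower (-0.72 ± 0.06), but as a near copy of a ribosomal protein gene it may share reads with other loci. Of 27 imprinted genes 7 were higher (25.9%) and 5 lower (18.5%), against 14.1% and 17.0% of all tested genes. The counts are not read as a result about this list (median -0.01, and 0.046 without 2i/LIF replicate 1). Grb10, a growth inhibitor, had 393 and 425 against 250.6 and 250.1 CPM (0.71 ± 0.07), and Cdkn1c, an inhibitor of the cell cycle, was higher by 0.61 ± 0.10, while Meg3 (-0.36), Rian (-0.50) and Mirg (-0.37) of one imprinted cluster were lower.

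In the remaining lists, G1 regulators were lower in 10 of 20 (50%) and higher in 1 (5%), against 17.0% and 14.1% of all tested genes (median -0.16). Cyclins Ccnd2 (19.02 and 14.6 against 30.3 and 27.7 CPM, -0.79 ± 0.13) and Ccnd3 (150.6 and 150.1 against 212.8 and 200.6 CPM, -0.46 ± 0.05) and the inhibitor locus Cdkn2a (-0.87 ± 0.12) were lower, and the inhibitor Cdkn1b was higher (0.32 ± 0.09). The p53 targets showed 4 higher (28.6%) and 2 lower (14.3%) of 14 (median 0.01), against 14.1% and 17.0% of all tested genes. Cdkn1a, which encodes p21, was lower (52.9 and 53.5 against 80.8 and 86.3 CPM, -0.65 ± 0.07), while the pro-apoptotic Bbc3 (0.64 ± 0.13) and Pmaip1 (0.36 ± 0.06) were higher. Of 15 SRF and YAP targets 4 were lower (26.7%) and 0 higher. Their median was -0.12, and -0.069 without 2i/LIF replicate 1, after 0.62 at 0 h and 0.44 at 12 h. Adhesion and epithelial genes had 3 higher (15.8%) and 4 lower (21.1%) of 19 (median 0.09, and 0.018 without serum/LIF+2i replicate 2). Vim, vimentin, was at 88.8 and 84.0 against 163 and 145 CPM (-0.84 ± 0.06). Counts in the p53, SRF and YAP, and adhesion lists are not read as results about those lists. Basement membrane and integrin genes had 4 higher (25%) and 6 lower (37.5%) of 16, against 14.1% and 17.0% of all tested genes. Members went in both directions, and the counts are not read as a result about this list. Its median was -0.11, and -0.073 without serum/LIF+2i replicate 1. Col4a1 was higher (30.0 and 27.6 against 7.64 and 11.2 CPM, 1.62 ± 0.14), as was its neighbour Col4a2 (1.29 ± 0.23), whose exons overlap it. Nid1, nidogen, which links laminin to type IV collagen, was lower (86.3 and 82.4 against 155 and 153 CPM, -0.87 ± 0.05).

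The gene with the largest higher value at 24 h among those averaging 5 CPM or more was Trim66, a chromatin reader, with 33.4 and 36.2 CPM in serum/LIF+2i and 2.64 and 3.04 in 2i/LIF (12.2-fold, 3.61 ± 0.19, edgeR adjusted p = 1.8e-29). Atf3, Ddit3, Derl3 and Cebpb were also among the 10 highest. Prph, the intermediate filament peripherin, had 22.5 and 30.0 against 4.72 and 3.95 CPM (2.59 ± 0.33), and Hrk, a pro-apoptotic BH3-only gene, had 20.9 and 21.5 against 4.30 and 4.26 (2.30 ± 0.18). The long noncoding RNA Miat (2.37 ± 0.23), the deubiquitinase Otub2 (2.24 ± 0.17) and Ubap1l (2.05 ± 0.12) completed the 10.

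At the other end, 1700013H16Rik had 0.995 and 0.306 CPM against 8.89 and 10.8 (-3.91 ± 0.34, edgeR adjusted p = 3.4e-19) and was lower at every time, with differences between -5.30 and -2.67. Gpx2, a glutathione peroxidase, had 13.4 and 12.7 against 62.8 and 59.6 CPM (-2.23 ± 0.10) and was also lower at every time, from -2.53 to -1.88. The same held for Irgm1, an interferon-induced GTPase (3.43 and 2.45 against 16.5 and 19.9 CPM, -2.63 ± 0.20), Ccdc141 (-2.20 ± 0.14), 4930502E18Rik (-2.05 ± 0.21), Gm21283 (-2.01 ± 0.17), Mbp (-1.89 ± 0.18), Ablim1 (-1.97 ± 0.18) and E330020D12Rik (-1.87 ± 0.17).

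For 269 genes (1.88% of those tested) the difference at 24 h was called and also departed in the same direction from the differences at 0, 12 and 40 h, each by its own test; 122 (0.854%) were higher and 147 (1.03%) lower in serum/LIF+2i. All 3 tests share the 24 h libraries. DESeq2's Wald test gave 141 such genes in place of 269, and a test against a 2-fold difference gave 2. The amino acid response list held 16 of these genes among its 30 members, ER chaperones 9 of 18, synthetases 7 of 20 and transporters 6 higher and 2 lower of 27. The naive list held 4 of 18, all lower: Nanog, Klf2, Tfcp2l1 and Nr5a2.

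By the smallest of the 3 departures, the 5 highest were Trim66 (2.17), Derl3 (2.01), Herpud1 (1.61), Atf3 (1.46) and Vldlr (1.45). Vldlr, a lipoprotein and reelin receptor, had 24.1 and 25.8 CPM in serum/LIF+2i and 7.36 and 7.75 in 2i/LIF at 24 h, after 4.73 and 3.94 against 8.09 and 6.28 at 12 h. The order of the media was thus reversed between the times. At 40 h its level in 2i/LIF rose to 32.9 and 38.3 CPM, near the 43.8 and 42.3 of serum/LIF+2i.

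Among the 5 lowest were Ndrg1 (-1.42), Ntn1 (-1.34), Ccn2 (-0.985) and Nr5a2 (-0.961). Ntn1, the secreted guidance cue netrin 1, was higher in serum/LIF+2i at 12 h (114 and 117 against 90.3 and 93.9 CPM) and lower at 24 h (10.4 and 11.01 against 31.7 and 31.8), and the groups overlapped at neither time. Ndrg1, a stress- and hypoxia-responsive gene, had 2.10 and 2.75 against 8.19 and 7.60 CPM (-1.69 ± 0.25). Ccn2, a target of YAP, had 10.51 and 13.1 against 24.9 and 22.9 CPM at 24 h and 40.0 and 33.5 against 36.7 and 37.2 at 12 h.

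**Figure D4:**
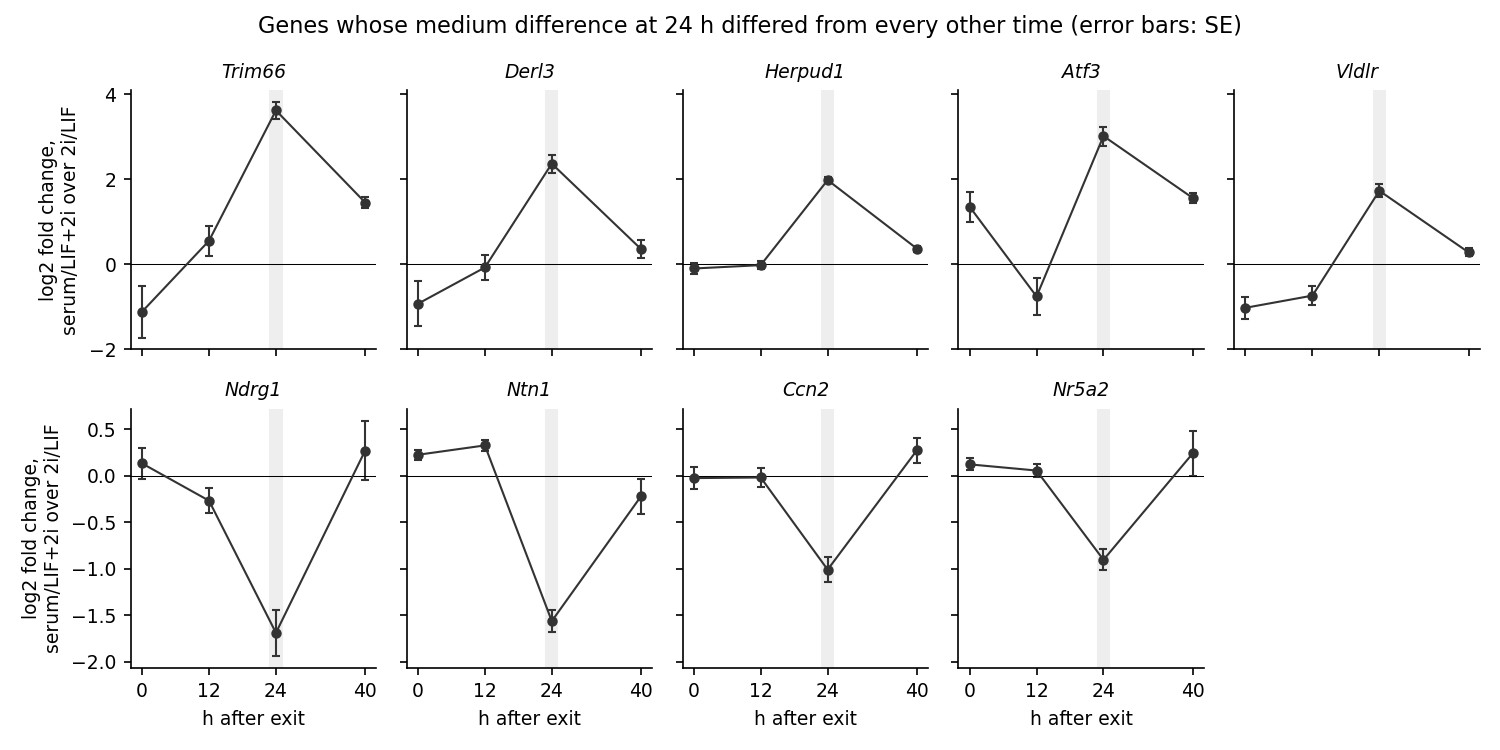
Log2 fold change of serum/LIF+2i over 2i/LIF at 0, 12, 24 and 40 h for 9 of 10 genes distinct at 24 h. These 10 were the highest and the lowest genes by the smallest departure of the 24 h difference from the other times. Each end was ranked separately, so some higher genes left out departed by more than some lower genes shown. Error bars are standard errors of the model and the grey band marks 24 h. The upper genes peak at 24 h, Trim66 at 3.61, and the lower genes dip there, Ndrg1 to -1.69.

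Most genes called at 24 h were also called at another time. Of the 14288 tested genes, 4710, 4334 and 3897 were called between the media at 0, 12 and 40 h. Of the 4439 called at 24 h, 962 were called at that time alone. With this many calls at each time, some sharing arises by number alone, and how much was not tested. At 24 and 0 h 2125 genes were called in both (47.9% of the 24 h calls and 45.1% of the 0 h calls), 1674 of them in the same direction. With 12 h 2076 were shared (46.8% and 47.9%), 1776 in the same direction, and with 40 h 2062 (46.5% and 52.9%), 1877 in the same direction. At all 4 times 729 genes were called, 533 in one direction throughout (192 higher and 341 lower). No library is shared between these 4 comparisons, but all were fitted in one model.

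The difference at 24 h was set beside the change that exit itself brought in 2i/LIF, from 0 to 40 h, a comparison that shares no library with it. Of 4875 genes that rose on exit, 1165 (23.9%) were higher and 613 (12.6%) lower in serum/LIF+2i at 24 h. Of 4962 that fell, 381 (7.68%) were higher and 1387 (28.0%) lower. Among 4451 genes not called on exit, 464 were higher and 429 lower. The median 24 h difference was 0.08 in genes that rose, -0.10 in genes that fell and 0.01 in the others. In the 3546 genes called in both comparisons the direction was the same in 2552 (72.0%). Across all 14288 genes, which are not independent replicates, Pearson's r was 0.342. All 18 naive genes were among those that fell and all 18 formative genes among those that rose, yet the naive list was lower in 14 and the formative list higher in 7 and lower in 5.

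**Figure D5:**
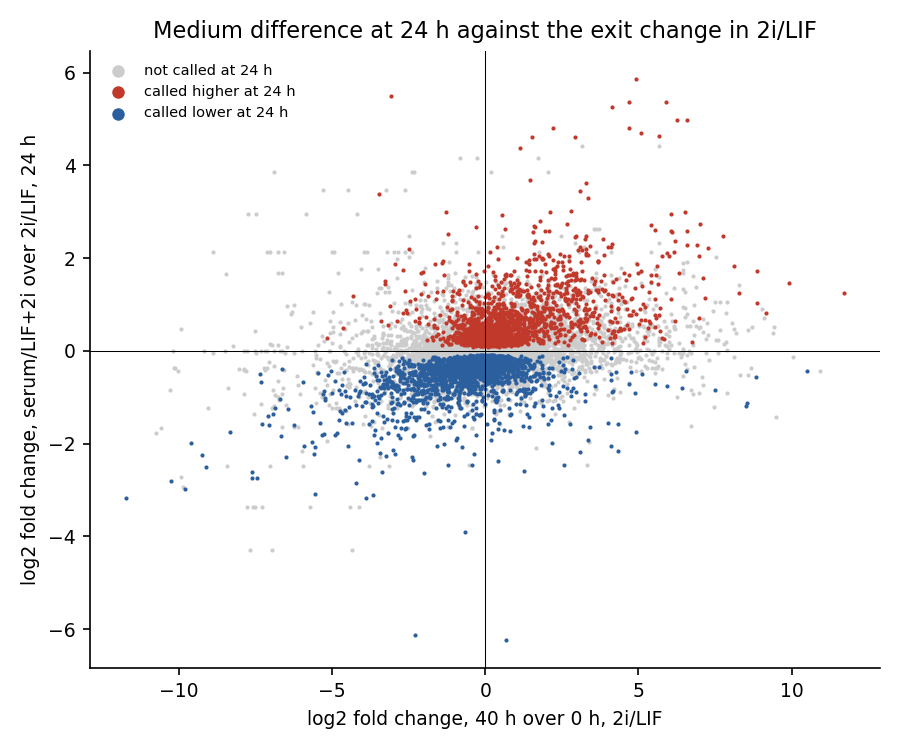
Log2 change from 0 to 40 h in 2i/LIF (horizontal) against the log2 medium difference at 24 h (vertical), one point per tested gene; red points were called higher in serum/LIF+2i at 24 h, blue points lower and grey points were not called. Called points lie in all 4 quadrants, with 1165 called higher among genes that rose and 1387 called lower among genes that fell.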

How the data were processed

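Total RNA came from a TRIzol extraction and a stranded mRNA kit was used, per the labels' protocols. The submitters' processing notes name fastp, STAR, featureCounts and the mm10 build; versions, annotation and strand setting are not given in the sources used here. The authors deposited 1 table of raw read counts per gene for all 16 libraries (27179 genes, 1049 without a symbol, 5836 at 0 in every library), with 0 columns set aside, and its gene length column served as a description only.

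All 16 libraries, in 8 groups of 2, were fitted in one model with edgeR 4.0.16 in R 4.3.3 (TMM scaling, robust quasi-likelihood F test, 8 residual degrees of freedom). Genes had to pass edgeR's filter (minimum count 10, minimum total 15), and p-values were adjusted by Benjamini-Hochberg over the 14288 genes left, with calls under 0.05. CPM values are scaled by TMM, and a count of 3 corresponded to 0.306 to 0.456 CPM at 24 h. Changes of the medium difference between times were contrasts of the same fit. The scripts were tested on simulated data.

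The fit did not pair libraries by replicate number. Over all tested genes the deviations of same-numbered 24 h libraries had a correlation of 0.00926. Counting noise weighs on this value, so it cannot show whether same-numbered libraries were prepared together. Genes were named by rule: the 10 highest and 10 lowest called genes averaging 5 CPM or more with groups that did not overlap, up to 4 such members with the largest differences from each list, the 5 highest and 5 lowest genes distinct at 24 h, Pou5f1, Sox2 and Nanog, and the cell type markers. Not every gene this rule gives is described with its values, and most of the 28 whose call was lost without 1 library are named only. Other list members named in the text were chosen after their values were seen. The comparison and the gene lists were chosen with earlier results of these data known. Promoter windows came from RefSeq (GRCm38.p6). DESeq2 1.42.0, other scalings and filters, the 4 libraries alone and leaving out each 24 h library were tried as alternatives. A few genes that the rule or lists hold are not reported here.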

Additional observations from a re-analysis of the deposited data

Results flagged for a closer look

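The medium difference was not constant over exit, by a test of the change itself (edgeR's quasi-likelihood F test). The difference at 24 h departed from that at 0 h in 2966 genes, from that at 12 h in 2440 and from that at 40 h in 1743, and from all 3 in one direction in 269. These tests share the 24 h libraries. The 269 genes were 1.88% of the 14288 tested. Among the 269 were 16 of 30 amino acid response genes, 9 of 18 ER chaperone genes and 7 of 20 aminoacyl-tRNA synthetase genes. All of these list members were higher in serum/LIF+2i. The 269 also held 8 of 27 amino acid transporter genes, 6 of them higher and 2 lower.

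The smallest of the 3 departures, on the log2 scale, was 2.17 for Trim66, 2.01 for Derl3, 1.61 for Herpud1, 1.46 for Atf3 and 1.45 for Vldlr. It was -1.42 for Ndrg1, -1.34 for Ntn1, -0.985 for Ccn2 and -0.961 for Nr5a2.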

How the results depend on the processing

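DESeq2's Wald test called 2729 genes at 24 h against 4439, and 1789, 1240 and 783 for the change from 0, 12 and 40 h against 2966, 2440 and 1743, with 141 genes distinct at 24 h against 269. A test against a log2 difference of 1 called 75, 55, 12, 10 and 2. The median difference of genes that rose or fell on exit, 0.08 and -0.10 in the fit reported, was 0.084 and -0.105 with DESeq2, 0.084 and -0.092 with its size factors, 0.094 and -0.087 with library size alone, 0.089 and -0.093 without the filter, 0.074 and -0.103 without ribosomal RNA genes, and 0.275 and -0.315 in the smaller sets past a log2 change of 1; it was 0.049 for genes that rose with a mean of at least 5 CPM. Leaving out each 24 h library gave 3076 to 3467 calls at 24 h, 2459 to 2497, 1811 to 1919 and 1246 to 1401 for the changes, 199 to 219 distinct genes, and medians of 0.079 to 0.090 and -0.0932 to -0.0847; a lone library is then assumed to vary like the other groups. The median of the LIF/STAT3 list turned from -0.05 to 0.0143 or 0.0152 without serum/LIF+2i replicate 1 or 2, over a range of -0.0607 to 0.0152 without each 24 h library. The cause of these shifts was not tested. Of 137 named genes, 28 lost the call without at least 1 library and 13 under DESeq2. Besides those described with their values in the results, the former are Amotl2, Cdk6, Cdkn2b, Cldn6, Crabp2, Dusp5, Fgf4, Fgfr1, Flna, Frs2, Fst, Glud1, Hes6, Jag1, Krt18, Lefty2, Me1, ND3, Nes, Phlda1, Plagl1, Stra8 and Sycp3, with adjusted p from 0.051 (Nes) to 0.5 (Stra8). Medians of 7 of 31 lists changed sign without at least 1 library, those of BMP and Id genes, ERK targets, FGF genes, the LIF/STAT3 axis, early lineage regulators (0.015 against -0.188 without serum/LIF+2i replicate 2 and -0.137 without 2i/LIF replicate 1), glutamine and proline metabolism and imprinted genes; that of imprinted genes was 0.017 with library size alone. With the replicate block 4451 genes were called at 24 h, 2990, 2475 and 1769 for the changes and 277 as distinct. Whether the replicate numbers pair the libraries was not settled. With only the 4 libraries fitted 4705 were called at 24 h. With 5931381 to 11142744 counts a library, genes near 0.3 CPM rest on few reads.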
